A study of Mus musculus with 282 samples.

Results

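A set of 8 long non-coding RNA genes expressed in the mouse hypothalamus is described here: Malat1, Neat1, Miat, 1700020I14Rik, A930011O12Rik, Gm3764, 2810008D09Rik and C330006A16Rik. They were chosen by name, as the gene rows and transcript rows of the deposited expression table whose gene name in the merged assembly is one of these 8, and not by a value. They make up 8 of 14079 gene rows and 41 of 51024 transcript rows. Of the 41, 39 carry the name of a member, and 2 rows of the Miat locus, named MIAT_exon5_3 and MIAT_exon5_1, were counted with Miat. The RNA came from the hypothalamus of male mice of 99 strains of the Hybrid Mouse Diversity Panel. All were fed a high fat diet, described in the paper as high in fat and sugar, so no other diet is set against it. The strains fall into 18 AXB/BXA strains (47 mice), 43 BXD strains (126 mice), 6 BXH strains (16 mice), 7 CXB strains (20 mice) and 25 inbred strains (71 mice). The first 4 sets are recombinant inbred lines, each descended from a cross of C57BL/6 with another strain (A, DBA/2, C3H and BALB/c, in that order), and every mouse of a strain carries the same genotype. The labels name the strain, sex and diet of each mouse, and no genetic modification.

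Of 282 deposited libraries, a CXB-6/ByJ pair, OB-273 and OB-274, differed by 1 constant factor (0.490%) in every gene and was counted as 1 mouse, although the study lists separate read totals for the libraries. The mouse OB-627 carries labels of 2 strains and entered no strain comparison, so strains were compared over 280 mice: 84 strains had 3, 13 had 2 and 2 had 1. A pair of libraries stood apart in the sum of FPKM (fragments per kilobase of transcript, scaled to the size of the library, the unit of all levels here) over the gene rows. This sum was 792801 in the BXD-12/TyJ mouse OB-547 and 463433 in the CXB-3/ByJ mouse OB-422, against a median of 337533 and 359916 in the next highest mouse. Their effect is given beside the results that they move most. The expression table gives no read counts behind an FPKM, so the spread between mice is used as error, and the read totals listed by the study entered 1 alternative fit as a covariate.

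Long non-coding RNAs of this kind are transcribed and often spliced and polyadenylated like messenger RNAs, but act as RNA. Malat1 lies in nuclear speckles, the bodies that store splicing factors. Neat1 is the scaffold of paraspeckles, bodies that hold RNA-binding proteins and edited RNAs. Its deposited transcript rows are RNAs of 3004 and 1030 bases. The 20771-base Neat1 transcript of the GENCODE M21 annotation has no row, so Neat1 levels here do not describe it. Miat, also called Gomafu, is a nuclear RNA of neurons that binds splicing factors through short repeats. 1700020I14Rik is the mouse Cyrano RNA, known for a long and nearly complete match to miR-7 that leads to destruction of this microRNA. A930011O12Rik, also called Rncr3, is the host transcript of a gene for miR-124, and Gm3764 is that of a gene for miR-9. 2810008D09Rik is Snhg20, a host gene of small nucleolar RNAs. C330006A16Rik is listed in a later annotation as Tmem250-ps, a pseudogene. Where the RNAs lie within the cell was not measured, so the data test their abundance only.

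Sequence elements are shown for Gm3764, 1700020I14Rik, Miat and Neat1, because the isoforms of these genes described below differ in whether they hold them. The Neat1 element marks the end of an RNA and not a function named above. The first group belongs to the microRNA hosts and targets. Capitals mark both mature arms in the Mir9-1 hairpin (chr3:88215598-88215686, plus strand, mm10) and the seed (bases 2 to 8) in each mature microRNA. In the 1700020I14Rik site (chr2:119602136-119602161, plus strand, mm10, in an exon) capitals mark the bases complementary to miR-7b-5p. The microRNAs are from RefSeq (mm10 positions) and the site from the GENCODE M21 sequence of the same transcript.

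Mir9-1 hairpin: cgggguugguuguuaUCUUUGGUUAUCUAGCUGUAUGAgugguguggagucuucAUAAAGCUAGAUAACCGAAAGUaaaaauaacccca
mmu-miR-9-5p: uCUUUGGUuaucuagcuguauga
mmu-miR-9-3p: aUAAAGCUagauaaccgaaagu
mmu-miR-7b-5p: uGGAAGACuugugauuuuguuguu
miR-7 site in 1700020I14Rik: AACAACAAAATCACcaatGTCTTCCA

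The site pairs with miR-7b-5p over 14 bases and, after 4 unpaired ones, over 8 more. It starts at base 2934 of the 8300-base isoform and is present in 1 of the 3 deposited isoforms. Of all genes in the GENCODE M21 transcript set, only 1700020I14Rik held both stretches, while the 8-base seed match alone was present in 19.4% of the 937 transcripts of 8000 to 10000 bases. The second group is from Miat and Neat1, both written in the direction of the RNA (minus strand). Capitals mark ACTAAC, the core of the Miat repeat, in a stretch of chr5:112217309-112217459, and AATAAA, the common polyadenylation signal, in the last bases of the shorter Neat1 RNA, chr19:5842307-5842366.

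Miat repeat stretch: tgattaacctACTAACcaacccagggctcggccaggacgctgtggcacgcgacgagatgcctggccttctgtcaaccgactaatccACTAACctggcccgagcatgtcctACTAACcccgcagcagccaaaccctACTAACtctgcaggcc
Neat1 3-prime end: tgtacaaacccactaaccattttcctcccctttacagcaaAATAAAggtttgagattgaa

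The stretch holds 4 of the 11 copies of ACTAAC in the 8758-base Miat RNA, searched on the RNA strand only. Of the 937 transcripts of like length, 63.7% held at least 1 copy and the median was 1. Of the 665 genes with such transcripts, 2 (Fam186a and Miat) had one with as many as 11. AATAAA started 20 bases from the end of Neat1, and 27.2% of 141515 GENCODE M21 transcripts had it in their last 60 bases.

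By mean level the 8 genes lay from the 74.1 percentile (Neat1) to the 99.2 percentile (Malat1) of all gene rows. Malat1 (XLOC_018278, chr19:5795690-5802672, minus strand) was the highest at 287 ± 67.7 FPKM (SD over all mice, as for the levels that follow), rank 110 of all gene rows. Its lowest, median and highest mice were at 56.4, 279 and 531 FPKM. Miat (XLOC_028218, chr5:112083423-112229461, minus strand) came next at 85.6 ± 19.6 FPKM, with a range of 52.8 to 164 and a median of 81.1. The remaining 6 genes fell into a higher and a lower group of 3. Gm3764 (XLOC_022489, chr3:88206800-88230515, plus strand) was at 40.8 ± 9.70 FPKM, 1700020I14Rik (XLOC_019779, chr2:119594274-119607965, plus strand) at 37.8 ± 6.60 and A930011O12Rik (XLOC_010868, chr14:64589825-64593959, plus strand) at 36.5 ± 5.70. 2810008D09Rik (XLOC_005389, chr11:117076565-117079025, plus strand) was at 23.4 ± 12.7 FPKM, C330006A16Rik (XLOC_020545, chr2:26136814-26140521, minus strand) at 22.5 ± 2.96 and Neat1 (XLOC_018280, chr19:5842307-5845476, minus strand) at 21.8 ± 11.6. Malat1 and Miat stood above the rest in their means, although 6 mice, OB-547 and OB-422 among them, had Malat1 within the range of Miat. Within each group of 3 the neighbours in this order differed by less than their SD, and single mice of the higher and lower groups overlapped. The libraries were made without strand information, so reads of overlapping genes on the other strand (Gm37376 at Malat1, Gm26953 at Miat and 1810012K08Rik at C330006A16Rik) cannot be told apart from those of the 8 genes.

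**Figure D1:**
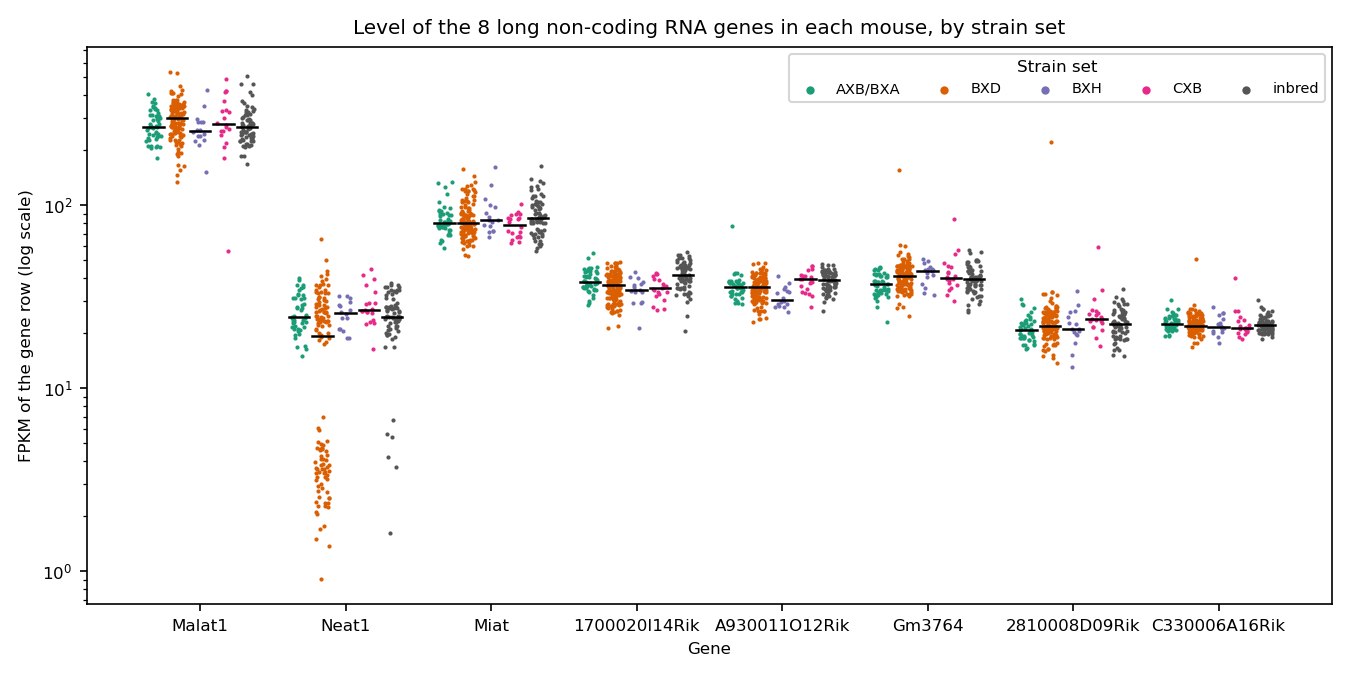
Level of each of the 8 genes in every mouse with a strain (points, FPKM on a log axis), by strain set, with a bar at the median of the set. Neat1 is the one gene with a separate low cloud, in BXD and inbred mice, and OB-547 lies far above all other mice for Gm3764 (155 FPKM) and 2810008D09Rik (221 FPKM).

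The mice OB-547 and OB-422 stood away from their strain mates in several of the genes. Gm3764 was at 155 FPKM in OB-547 against 32.6 and 34.3 in the other BXD-12/TyJ mice, and at 84.4 in OB-422 against 29.98 and 42.4 in the other CXB-3/ByJ mice. 2810008D09Rik was at 221 FPKM in OB-547 against 23.1 and 22.0, and at 59.1 in OB-422 against 16.9 and 26.7. C330006A16Rik was at 50.9 FPKM in OB-547 against 24.0 and 21.6, and at 40.1 in OB-422 against 23.5 and 20.5. The gene rows were thus high in both mice, and that of Neat1 was as well. The only deposited C330006A16Rik transcript went the other way, at 9.32 FPKM in OB-547, the lowest of all mice, and at 14.1 in OB-422, against a mean of 19.6. Neat1 was at 65.7 FPKM in OB-547 against 42.2 and 26.4, and at 44.8 in OB-422 against 27.1 and 28.9. Malat1 went the other way, at 147 FPKM in OB-547 against 325 and 319, and at 56.4 in OB-422 against 487 and 413. 1700020I14Rik was also below its strain mates in both mice, at 28.8 FPKM against 41.7 and 40.4 and at 27.1 against 36.4 and 30.4. The part of RNA quality in these libraries was not tested.

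Strains were compared to ask how far the level of each RNA differs between them. Mice of a strain share their genotype and often carry consecutive animal numbers. The labels name no cohort or dissection, and the part of shared handling in the strain differences was not tested. Neat1, 1700020I14Rik, A930011O12Rik and Malat1 differed between the 99 strains, and Miat, Gm3764, 2810008D09Rik and C330006A16Rik did not pass the test. In limma's moderated F test on log2(FPKM + 1), adjusted over all gene rows, 4 of the 8 genes were called at an adjusted p under 0.05, beside 74.9% of all gene rows. The strain share of the variance (intraclass correlation, where 1 means that mice of a strain are identical and 0 that they are no more alike than others) was 0.938 for Neat1 (adjusted p = 8.38e-90), 0.513 for 1700020I14Rik (adjusted p = 2.39e-15) and 0.402 for A930011O12Rik (adjusted p = 1.09e-09). It was 0.178 for Malat1 (adjusted p = 0.00366), below the median of 0.221 over all gene rows. The other 4 genes had shares from 0.0641 (Gm3764, adjusted p = 0.162) to 0.0955 (C330006A16Rik, adjusted p = 0.0837). Without OB-547, 7 of the 8 were called (80.9% of all gene rows), and without OB-547 and OB-422 also 7 (83.6%), with Miat the exception in both. Without both mice the share of Gm3764 was 0.193 (adjusted p = 0.0019) and that of Malat1 0.359 (adjusted p = 3.90e-08).

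**Figure D2:**
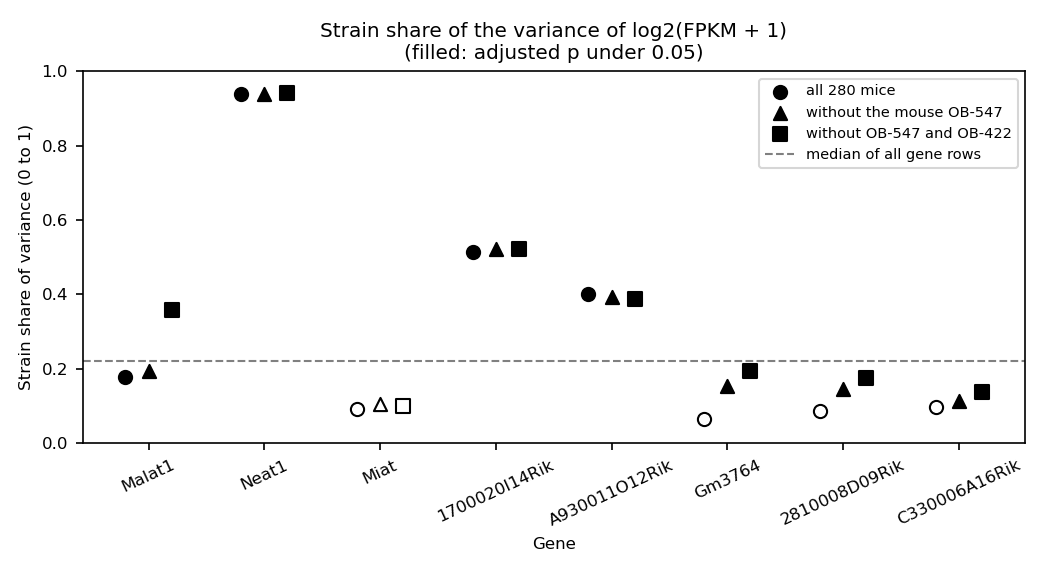
Strain share of the variance of log2(FPKM + 1) for each gene (0 to 1), over all 280 mice, without OB-547, and without OB-547 and OB-422; filled symbols passed the F test and the dashed line is the median of all gene rows. Neat1 lies near 0.94 in all 3, Malat1 moves from 0.178 to 0.359, and Gm3764, 2810008D09Rik and C330006A16Rik pass once OB-547 is left out.

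Within the strain sets, the same fit called 5 of the 8 genes among BXD strains (64.0% of all gene rows), 3 among inbred strains (47.4%), 2 among AXB/BXA strains (22.1%), 1 among CXB strains (16.4%) and 0 among BXH strains (18.4%), where 2 had an unadjusted p under 0.05. Neat1 was called among BXD (adjusted p = 8.81e-90), inbred (adjusted p = 1.69e-33) and AXB/BXA strains (adjusted p = 0.00185). 1700020I14Rik was called in the same 3 sets, with adjusted p = 2.07e-08, 3.20e-08 and 0.0192. A930011O12Rik was called among BXD strains (adjusted p = 8.61e-07) and CXB strains (adjusted p = 0.0469). Malat1 and 2810008D09Rik were called among BXD strains (adjusted p = 0.0111 and 0.0143), and Miat among inbred strains (adjusted p = 0.0226). The BXD set includes OB-547, where 2810008D09Rik was at 221 FPKM against 23.1 and 22.0 in its strain mates. The strain share of 2810008D09Rik among BXD strains was 0.0681. Its call in this set without OB-547 is not given here. Without OB-547 and OB-422, which belong to neither set, all 8 genes were called among inbred strains (63.2% of all gene rows) and 3 among BXH strains (28.9%), since the fit shares 1 estimate of the spread.

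Neat1 had the widest range of strain means, from 2.14 ± 1.16 FPKM in BXD87 (mice at 0.912, 2.29 and 3.21) to 40.3 ± 4.11 in BXD56 and 44.8 ± 19.8 in BXD-12/TyJ, the strain of OB-547. The strain means fell into separate ranges with an empty stretch between them. Of the 43 BXD strains, 20 had means of 2.14 to 4.87 FPKM and 23 had means of 18.8 to 44.8, a ratio of 3.87 across the gap where the next widest gap was 1.21. Over all 99 strains, 22 had means up to 5.52 FPKM (the 20 BXD strains, CBA/J and DBA/2J) and 77 had means from 17.9 FPKM upward. The split was drawn from the levels themselves and is a description. The spread of Neat1 within strains was 0.29 on the log2 scale, against 1.13 between strain means.

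The low range includes 1 parent of the BXD strains and the high range the other. Neat1 was at 5.64, 4.20 and 6.73 FPKM in the 3 DBA/2J mice and at 22.6, 24.6 and 33.6 FPKM in the 3 C57BL/6J mice, which do not overlap. DBA/2J was lower by a log2 difference of -2.10 (SE 0.24, adjusted p = 6.45e-14, limma). The 3 CBA/J mice were at 5.44, 1.63 and 3.73 FPKM. In the other founder strains Neat1 was at 20.7 (A/J), 22.2 (C3H/HeJ) and 28.6 FPKM (BALB/cJ) on average, and none of these passed the test against C57BL/6J. Both Neat1 isoforms differed between strains in level, with strain shares of 0.944 for the 3004-base RNA (adjusted p = 7.59e-92) and 0.358 for the 1030-base RNA (adjusted p = 8.58e-08).

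**Figure D3:**
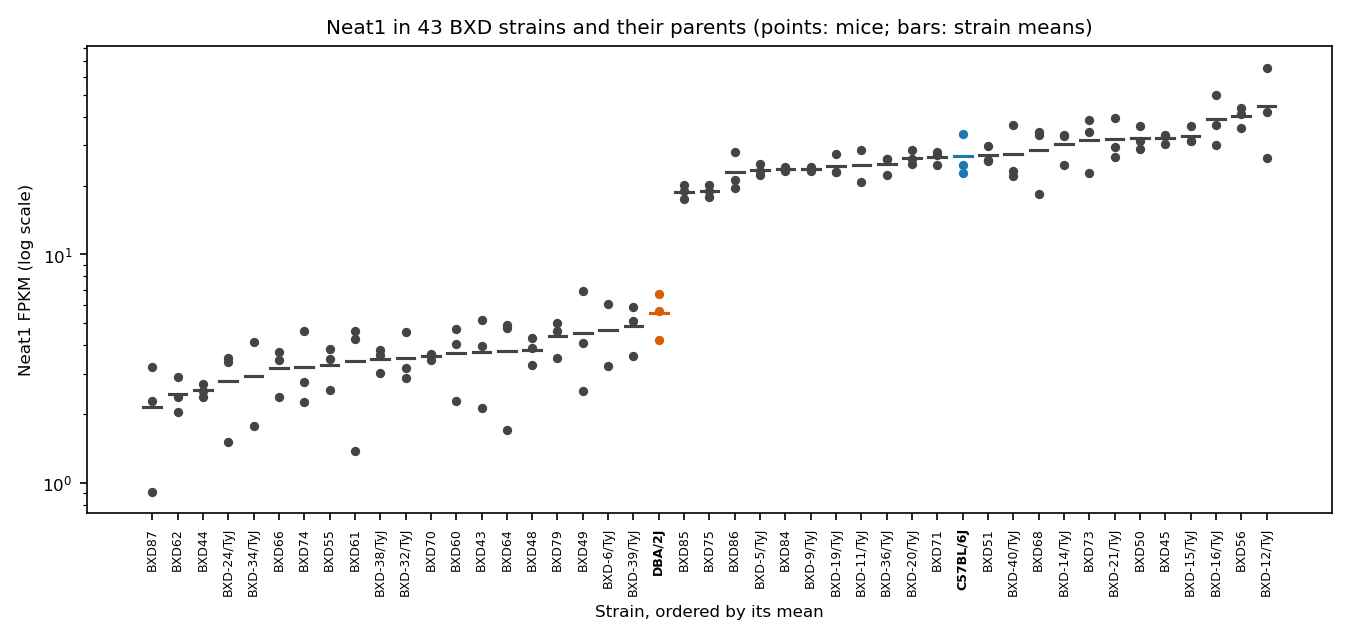
Neat1 level (FPKM, log axis) in each mouse of the 43 BXD strains and of their parents DBA/2J (orange) and C57BL/6J (blue), with bars at strain means and strains in the order of their means. The 20 low strains end at 4.87 FPKM, DBA/2J follows at 5.52, and the 23 high strains start at 18.8 FPKM.

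Among deposited genes with a position in the assembly, the nearest on each side of Neat1 did not pass the test between the same parents. Malat1, which lies 39635 bases from Neat1 on the same chromosome, differed between DBA/2J and C57BL/6J by 0.12 on the log2 scale (adjusted p = 0.871). Frmd8, 4226 bases away on the other side, differed by -0.01 (adjusted p = 0.993). Over the 99 strain means the correlation with Neat1 was -0.141 for Malat1 and -0.205 for Frmd8. A gene row with no position in the assembly given here, XLOC_017782 (mean 16.4 FPKM), had r = 0.980 with Neat1 over the same means. Without a position, XLOC_017782 could not enter the search for nearest genes, and its distance from Neat1 is unknown here. Of the positioned genes the highest r was 0.656, for Plcb3, and the lowest -0.584, for Ap5b1, both on chromosome 19 as Neat1 is. These 3 rows were chosen after their values were seen. Of the 14 paraspeckle protein genes, whose products bind Neat1 RNA, 0 differed between DBA/2J and C57BL/6J in limma's adjusted test and 3 had an unadjusted p under 0.05, beside 6.85% of all gene rows past the adjusted test.

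In the founder contrasts, 1 of the 8 genes was called for DBA/2J (Neat1, 6.85% of all gene rows), 1 for A/J (7.98%), 1 for C3H/HeJ (7.56%) and 0 for BALB/cJ (6.75%, with 1 of the 8 at an unadjusted p under 0.05), all against the same 3 C57BL/6J mice. The gene called for A/J and C3H/HeJ was 1700020I14Rik. It was at 24.9, 35.6 and 29.6 FPKM in C57BL/6J, at 49.1, 46.5 and 50.2 in A/J and at 53.5, 45.8 and 47.1 in C3H/HeJ. Each of the A/J and C3H/HeJ mice was above each C57BL/6J mouse, by log2 differences of 0.69 (SE 0.14, adjusted p = 1.38e-04) and 0.69 (SE 0.14, adjusted p = 1.30e-04). DBA/2J, at 41.3, 35.2 and 39.5 FPKM, lay between (log2 difference 0.37, 95% interval 0.08 to 0.65, adjusted p = 0.116). Unlike Neat1, strain means of 1700020I14Rik showed no gap, and of the 18 AXB/BXA strains 17 lay between the parents and 1 above both, with 8 nearer A/J and 10 nearer C57BL/6J. The 6 BXH strains all lay nearer C57BL/6J, 1 of them below both parents. The lowest strain was BXD-19/TyJ at 27.0 ± 4.65 FPKM and the highest BXA-12/PgnJ at 53.3 ± 2.53 (n = 2), with NZB/BlNJ next at 52.7 ± 2.22.

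A930011O12Rik, the miR-124 host, ranged from 26.8 ± 3.91 FPKM in BXD-38/TyJ to 49.1 ± 23.9 in AXB-19/PgnJ. The latter rests on 1 mouse, since the 3 mice were at 34.2, 36.6 and 76.7 FPKM. In that mouse the only deposited transcript was at 31.9 FPKM, below the 35.04 and 33.04 of its strain mates. The next highest strain was NZB/BlNJ, where all 3 mice lay between 43.7 and 47.3 FPKM. Malat1 ranged from 184 ± 24.6 FPKM in BXD-19/TyJ to 424 ± 31.8 in 129X1/SvJ. Miat was also highest in 129X1/SvJ, at 125 ± 17.8 FPKM, and lowest in BXD-16/TyJ at 60.9 ± 7.15. Among strains with 2 or more mice, C330006A16Rik had the narrowest range, from 19.6 ± 0.511 FPKM in CE/J to 32.2 ± 16.3 in BXD-12/TyJ, and its highest pair of strains were those of OB-547 and OB-422. The same strains held the highest pair of means for Gm3764 (73.9 and 52.3 FPKM) and 2810008D09Rik (88.6 and 34.3). The lowest means were 29.8 ± 4.66 FPKM in KK/HlJ for Gm3764 and 14.1 ± 1.52 in BXHA1 (n = 2) for 2810008D09Rik.

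Gm3764 was at 49.2, 48.9 and 50.3 FPKM in C57BL/6J and at 36.5, 30.7 and 36.4 in C3H/HeJ. The groups do not overlap, but the log2 difference of -0.51 (SE 0.20) did not pass limma's adjusted test (adjusted p = 0.122). Without OB-547 it passed (adjusted p = 0.0455), and also without OB-547 and OB-422 (adjusted p = 0.0273).

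Isoforms were compared as shares of the summed FPKM of a gene's deposited transcripts, to separate isoform use from level. In most of the 8 genes a single transcript held most of the signal, and Miat and Gm3764 were the exceptions. These sums came to 81.9% (Gm3764) to 99.3% (Neat1) of the gene row on average. They were far lower in OB-547 for C330006A16Rik (18.3%) and Miat (39.0%), and in the highest A930011O12Rik mouse for that gene (41.6%). A930011O12Rik and C330006A16Rik had 1 deposited transcript each, of 3822 and 2483 bases.

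For Malat1, the unspliced 6983-base RNA made up 93.7% ± 4.44 (SD over all mice) and a spliced 556-base RNA the rest. The Malat1 share ranged from 80.1% to 100% over the mice. For Neat1, the 3004-base RNA that ends at the polyadenylation signal shown above made up 90.3% ± 7.93, and the 1030-base RNA, at 0 FPKM in 30 mice, made up 9.66%. The longest Neat1 transcript of GENCODE M21, 20771 bases, has no row among the deposited transcripts and was not analysed here. For 1700020I14Rik, the 8300-base isoform that holds the miR-7 site made up 80.0% ± 7.998. It was lowest in OB-547, at 17.3%, where the 4801-base isoform reached 23.7 FPKM. For 2810008D09Rik, a 593-base RNA made up 73.5% ± 9.66, a 358-base RNA 17.8% ± 9.90 and an unspliced 2153-base RNA 8.72% ± 2.42. In OB-547 both short forms were above 100 FPKM (103 and 101), against at most 35.1 and 20.2 in any other mouse.

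Miat had 10 deposited transcripts, and 9 of them were at 0 in at least 1 mouse. The 8758-base RNA led with 40.7% ± 8.63 of the summed FPKM, followed by a 7741-base RNA with 17.5% ± 5.28. The 4 transcripts that hold all 11 copies of ACTAAC made up 60.3% ± 11.3 together, from 25.4% to 86.4% over the mice. A single-exon RNA of 361 bases with 3 copies made up 12.2% ± 8.78. Another of 150 bases with 4 copies, which overlaps the stretch shown above over 142 bases, made up 7.33% ± 13.2 and was at 0 in 179 mice. The remaining 4 hold no copy.

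Gm3764 had 19 deposited transcripts, which differ in where they start with respect to the miR-9 hairpin. The 9 transcripts that start after the hairpin made up 64.5% ± 7.05 of the summed FPKM, the 6 that start before it 15.2% ± 4.999, and the 4 that start inside it 20.3% ± 5.25. The latter start at 88215648 to 88215685, in the 3-prime part of the hairpin sequence shown above. Of the 6 that start before the hairpin, 1 carries the hairpin within an exon. The single leading transcript was a 858-base RNA that starts 13097 bases after the hairpin, with 35.4% ± 9.11. In OB-547 it stood at 124 FPKM and 89.4%, against at most 53.4 FPKM in any other mouse. Without OB-547 the shares after, before and inside were 64.4%, 15.3% and 20.3%.

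**Figure D4:**
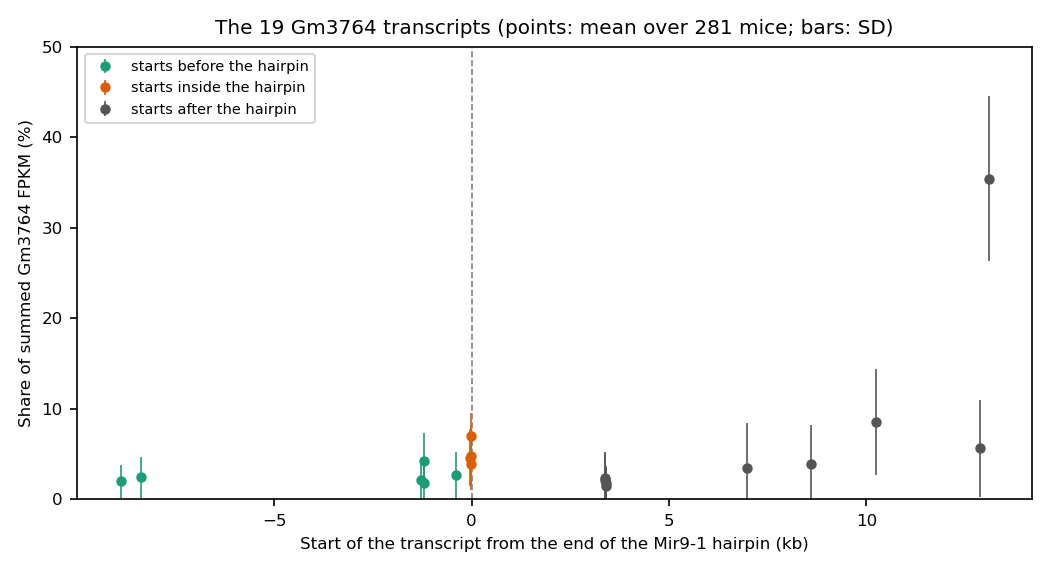
Share of each of the 19 Gm3764 transcripts in their summed FPKM (mean over all mice, bars SD) against the distance of its start from the end of the Mir9-1 hairpin in kb (dashed line at 0). The leading transcript, at 35.4%, starts farthest downstream, and the 4 starts inside the hairpin hold 3.92% to 6.97% each.

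In level, 20 of the 41 transcripts differed between strains, beside 45.9% of all transcript rows. They included 2 of 2 for Malat1 and for Neat1, 3 of 3 for 1700020I14Rik, 9 of 19 for Gm3764, 1 of 3 for 2810008D09Rik, 1 of 10 for Miat and the single transcripts of A930011O12Rik and C330006A16Rik. In isoform share, 11 of 39 differed, beside 36.7% of all transcripts tested. These were both Malat1 transcripts (which mirror each other, adjusted p = 0.00142), the 1381-base isoform of 1700020I14Rik (adjusted p = 0.00142), the 358-base and 593-base isoforms of 2810008D09Rik (adjusted p = 0.00919 and 0.00401) and 6 of Gm3764. The leading isoforms of Neat1 (adjusted p = 0.303), 1700020I14Rik (adjusted p = 0.245), Miat (adjusted p = 0.428) and Gm3764 (adjusted p = 0.459) did not pass.

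Mice of 1 strain share their genotype, so deviations from strain means show which RNAs move together apart from strain differences. Over 278 mice of 97 strains, 15 of the 28 pairs of the 8 genes passed with either gene of the pair as the predictor (limma, adjusted over all gene rows), 9 positive and 6 negative, and the counts were again 9 and 6 without OB-547 and OB-422. Such calls were common over all 14078 genes. The share that rose ran from 5.32% with Miat to 39.1% with 2810008D09Rik. The share that fell ran from 3.60% with Miat to 35.8% with Malat1. The pairs are thus a description, not a trait particular to the 8 genes. Deviations of 1700020I14Rik rose with those of Malat1 (r = 0.473, Spearman's rho = 0.512, permutation p = 1e-05, the smallest the 100000 permutations can give). They also rose with those of A930011O12Rik (r = 0.421, rho = 0.392, permutation p = 1e-05). Without the 2 mice farthest from the median these were 0.471 and 0.378, and without OB-547 and OB-422 they were 0.485 and 0.418.

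Gm3764, 2810008D09Rik and C330006A16Rik rose together. The strongest pair was 2810008D09Rik with C330006A16Rik (r = 0.581, rho = 0.349, permutation p = 1e-05 for each). Next came Gm3764 with 2810008D09Rik (r = 0.556, permutation p = 2.00e-04 for r, rho = 0.218, permutation p = 0.00373 for rho). Gm3764 with C330006A16Rik followed (r = 0.538, permutation p = 1e-05 for r, rho = 0.303, permutation p = 3.00e-05 for rho). These values rest in large part on OB-547 and OB-422. Without both, r fell to 0.325, 0.243 and 0.301, still past the test (adjusted p = 7.58e-05, 0.00622 and 5.84e-04).

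Malat1 and 1700020I14Rik both moved against these 3 genes. With Malat1, r was -0.438 for Gm3764 (permutation p = 3.00e-05 for r, rho = -0.274, permutation p = 1.20e-04 for rho). It was -0.473 for 2810008D09Rik (permutation p = 1e-05 for r, rho = -0.342, permutation p = 3.00e-05 for rho). For C330006A16Rik it was -0.506 (rho = -0.377, permutation p = 1e-05 for each). These r were -0.255, -0.314 and -0.331 without OB-547 and OB-422. With 1700020I14Rik, r was -0.334, -0.383 and -0.305, and without both mice -0.275, -0.351 and -0.240. Neat1 rose with the same 3 genes (r = 0.335, 0.346 and 0.328, and 0.244, 0.258 and 0.238 without both mice) and with A930011O12Rik (r = 0.245). Neat1 and its neighbour Malat1 were not called (r = -0.154, rho = -0.142, adjusted p = 0.0832), and none of the 7 pairs of Miat passed, with permutation p of r from 0.274 to 0.987.

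**Figure D5:**
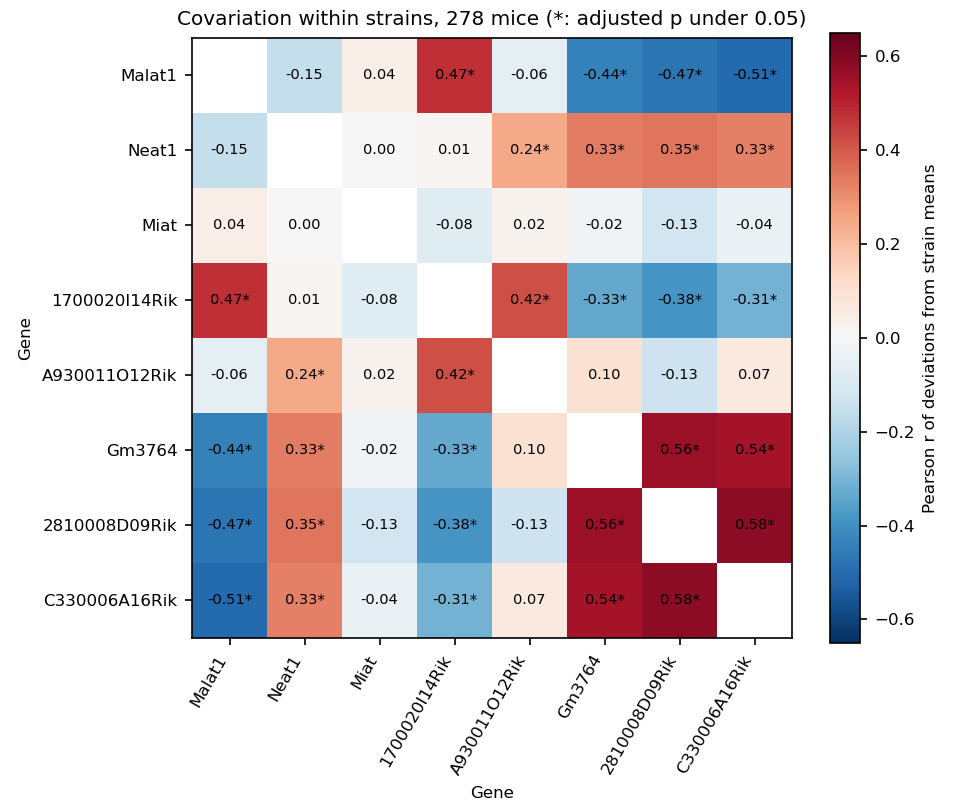
Pearson r of deviations from strain means of log2(FPKM + 1) for each pair of the 8 genes over 278 mice (colour and number; an asterisk marks an adjusted p under 0.05). Gm3764, 2810008D09Rik and C330006A16Rik form a positive block, Malat1 and 1700020I14Rik are negative against it, and the Miat row is near 0.

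These correlations move with the summed FPKM of the gene rows. Its r within strains was -0.520 with Malat1, -0.263 with 1700020I14Rik, 0.727 with 2810008D09Rik, 0.646 with C330006A16Rik, 0.620 with Gm3764 and 0.270 with Neat1. Without OB-547 and OB-422 it was -0.539 with Malat1, -0.254 with 1700020I14Rik, 0.291 with 2810008D09Rik, 0.471 with C330006A16Rik, 0.218 with Gm3764 and 0.147 with Neat1. With Miat it turned from -0.108 to 0.172 and with A930011O12Rik from -0.0150 to 0.195. The part of this sum in the pairs was not tested.

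The genes closest to each RNA, from loci with 1 gene name, differed between the 8 genes. Malat1 was closest to Gm24564 (r = 0.805), Vps13c (0.742) and Nfat5 (0.738), a transcription factor of the osmotic stress response. 1700020I14Rik was closest to Rgs7bp (0.841), Osbpl1a (0.829) and Slc24a2 (0.816), which encode a partner of G protein regulators, an oxysterol-binding protein and a sodium, calcium and potassium exchanger. Its most negative gene was Hap1, the huntingtin-associated protein abundant in hypothalamus (r = -0.850). A930011O12Rik was closest to Inpp5j (0.665), Adora1 (0.655), the adenosine A1 receptor, and Gabrd (0.642), the delta subunit of GABA-A receptors. Without OB-547 and OB-422 the r of the 3 genes closest to Malat1 were 0.696, 0.631 and 0.602, and those of Rgs7bp and Inpp5j were 0.843 and 0.687.

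For the other genes the closest values were lower or rested more on the outlying mice. Neat1 was closest to Gng11 (0.436), Qdpr (0.424) and Gsn (0.404), a gelsolin gene with high expression in oligodendrocytes. Miat was closest to Limk1 (0.479), Dlg4 (0.462), which encodes the postsynaptic scaffold PSD-95, and Ptprs (0.426). 2810008D09Rik was closest to Akr1a1 (0.793), Rpl9 (0.789) and Psmb1 (0.786), of metabolism, the ribosome and the proteasome. C330006A16Rik was closest to Mt3 (0.740), Uqcr11 (0.725) and Cst3 (0.721), and Gm3764 to Rrp1 (0.736), Fam193b (0.713) and Pi4ka (0.712). Without OB-547 the r of Rrp1, Akr1a1 and Mt3 were 0.608, 0.614 and 0.660.

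The nearest deposited genes with a position on each side moved with several of the RNAs within strains, in either direction, as many genes elsewhere did. Of all genes, 36.4% rose and 29.7% fell with Gm3764, and 39.1% and 31.6% with 2810008D09Rik. For C330006A16Rik these shares were 37.6% and 29.7%, and for 1700020I14Rik 23.9% and 28.8%. They were 12.9% and 11.8% for A930011O12Rik and 5.32% and 3.60% for Miat. Gm3764 rose with AW047730 (r = 0.495, adjusted p = 7.36e-12), 3218 bases away, and with Cct3 (r = 0.562, adjusted p = 1.91e-15), a chaperonin subunit gene 66504 bases away. A930011O12Rik rose with Msra (r = 0.410, adjusted p = 2.53e-07) and Kif13b (r = 0.278, adjusted p = 0.00145), which are 133922 and 58562 bases away. 2810008D09Rik moved against Mgat5b (r = -0.422, adjusted p = 7.98e-09). The neighbours of 1700020I14Rik showed smaller values (r = 0.169, adjusted p = 0.0468 for Chp1 and r = 0.140, adjusted p = 0.1004 for Ndufaf1), and C330006A16Rik moved against Nacc2 (r = -0.252) and with Qsox2 (r = 0.231). The neighbours of Miat (XLOC_027223 and Crybb1) did not pass.

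Markers of cell types and of neighbouring brain regions moved with several of the RNAs within strains. In bulk tissue, fewer cells of a type and less RNA per cell cannot be told apart. All 5 thalamus markers (Tcf7l2, Prkcd, Tnnt1, Lef1, Ramp3) rose with 1700020I14Rik and all 5 with A930011O12Rik, beside 23.9% and 12.9% of 14078 genes, with r from 0.518 to 0.679 and from 0.531 to 0.632. Their summed level ranged from 17.4 to 381 FPKM over the mice (median 216), with none at 0 in any mouse. The r of that sum was 0.653 with 1700020I14Rik and 0.624 with A930011O12Rik, and 0.683 and 0.632 without OB-547 and OB-422. All 7 hypothalamic genes (Agrp, Pomc, Hcrt, Pmch, Avp, Oxt, Nkx2-1) moved against 1700020I14Rik, beside 28.8% of genes, from r = -0.188 for Pomc to -0.688 for Nkx2-1, a transcription factor of the developing hypothalamus. Of these 7, 4 moved against A930011O12Rik, beside 11.8% of genes. Their summed level ranged from 829 to 9180 FPKM (median 1330) and none was at 0. The rows of Agrp and Oxt also hold other named genes, whose part in these values was not tested. The part of tissue taken beside the hypothalamus in the 1700020I14Rik and A930011O12Rik values was not tested.

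The same hypothalamic genes separated Malat1 from the block of 3 genes. With Malat1, 6 of 7 moved in the opposite direction (all but Pomc), where 35.8% of all genes fell and 28.6% rose. With Gm3764, 6 of 7 rose (all but Pomc), where 36.4% of all genes rose and 29.7% fell. The counts were again 6 of 7 for 2810008D09Rik (39.1% positive and 31.6% negative over all genes) and for C330006A16Rik (37.6% and 29.7%). Without OB-547 and OB-422 they were 6 for Malat1, 6 for 2810008D09Rik, 4 for Gm3764 and 3 for C330006A16Rik. Calls over all 14078 genes fell as well, the negative ones with Malat1 from 5040 to 3446. Positive ones fell from 5502 to 2444 with 2810008D09Rik, from 5119 to 1877 with Gm3764 and from 5288 to 2901 with C330006A16Rik.

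Oligodendrocyte markers (among them Mog, Mbp, Mag, Mobp and Cnp) rose with 1700020I14Rik and A930011O12Rik in 6 of 6 cases each, beside 23.9% and 12.9% of genes. With Neat1 5 of 6 rose, beside 20.0% of genes. With C330006A16Rik 5 rose and 1 fell (5 and 0 without OB-547 and OB-422), where 37.6% of genes rose and 29.7% fell. With Malat1 1 rose and 3 fell, where 28.6% of genes rose and 35.8% fell. With Gm3764 3 rose and 1 fell, where 36.4% of genes rose and 29.7% fell. With 2810008D09Rik 2 rose and 1 fell, where 39.1% of genes rose and 31.6% fell. With Miat 0 passed, where 5.32% of genes rose and 3.60% fell. With Neat1 r was 0.288 to 0.365 for the 5 that passed. All 6 passed with Neat1 once both mice were left out, where 569 of 14078 genes rose, against 2815 with all mice. The summed level of the 6 markers ranged from 1481 to 3763 FPKM (median 2418), none at 0. All 5 measured choroid plexus markers (Ttr, Kl, Folr1, Clic6, Kcnj13) also rose with Neat1, with r from 0.202 to 0.270, and 4 did without both mice. Their sum ranged from 7.25 to 2101 FPKM (median 24.3), with Folr1 and Kcnj13 at 0 in some mice. The part of such cells in the Neat1 values was not tested.

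Lists of partner genes showed mixed directions. The rows of Sfpq, Rbm14, Nudt21, Matr3 and U2af2 in these lists also hold other named genes. Of the 14 paraspeckle protein genes, 3 rose with Neat1 (among them Taf15 and Ewsr1, r = 0.269 and 0.289), beside 20.0% of genes, and 2 fell (Nono and Cpsf6, r = -0.203 and -0.306), beside 17.8%. Without OB-547 and OB-422, 1 rose and 0 fell, where 569 of 14078 genes rose and 1046 fell. Of the 14 measured nuclear speckle genes, 4 rose and 5 fell with Malat1, beside 28.6% and 35.8% of all genes. Of 6 splicing factor genes named for binding the Miat repeat or similar RNA, 3 rose with Miat (Sf1, Khdrbs1 and Celf3, r = 0.313, 0.264 and 0.255), where 5.32% of all genes rose and 3.60% fell. Without both mice the count was again 3, where 1257 of 14078 genes rose and 599 fell. With Malat1, 4 of these 6 rose (Qk, Celf2, Celf1 and Khdrbs1, r = 0.536, 0.521, 0.477 and 0.267) and Celf3 fell (r = -0.357). Without both mice 3 rose and 2 fell, where 2982 of 14078 genes rose and 3446 fell. The 8 other long non-coding RNA genes with a value lie on 7 rows, since Meg3 and Mirg share 1, and another gene shares its row with a paraspeckle gene. Of the 8, 2 rose and 3 fell with Malat1 (2 and 2 without both mice), where 28.6% of all genes rose and 35.8% fell. With 2810008D09Rik 4 rose and 1 fell, where 39.1% of all genes rose and 31.6% fell. Without both mice the counts were 2 and 0, where 2444 of 14078 genes rose and 2731 fell.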

How the data were processed

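Hypothalamic RNA of 282 male mice was sequenced by the study from unstranded polyadenylated RNA libraries. The authors used STAR 2.3.1 for alignment (build mm10) and Cufflinks 2.2.0 for an assembly of each strain, which was joined to GENCODE annotation. They deposited FPKM of genes and transcripts from Cuffnorm 2.2.1 for features past their expression filter. Read totals listed by the study served only as a covariate in an alternative fit.

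Here FPKM were analysed as log2(FPKM + 1) with limma 3.58.1 in R 4.3.3 (Python 3.11.15 otherwise): a moderated F test over 99 strains, F tests within 5 strain sets and 4 founder contrasts from the same fit, and regression of each gene on strain and the level of each of the 8 genes. Benjamini-Hochberg adjustment was over all rows, with a threshold of 0.05. Isoform shares had to be defined in 200 mice. Pairs were permuted within strains 100000 times. Scripts were tested on simulated data. Mice are separate animals. The 8 genes, the gene and marker lists (paraspeckle, nuclear speckle, Miat-binding and other non-coding genes, and markers of neurons, hypothalamic neurons, glia, endothelium, pituitary, choroid plexus, thalamus and blood) and the tests were chosen with earlier results of these data known. Named genes were the 8, these lists, the 3 closest genes by r and the nearest deposited genes with a position in the assembly. The strains with extreme means were also named. The fits used 280 mice, 1 fewer than planned, since a near-identical pair of libraries was merged. Values of some single list genes and neighbouring genes are not reported here.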

Additional observations from a re-analysis of the deposited data

How the results depend on the processing

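Of the 8 genes, 7 differed between strains after quantile normalization, by the Kruskal-Wallis test, without OB-547 (80.9% of all gene rows) and without OB-547 and OB-422 (83.6%), in place of 4 (74.9%). The last setting and counting the near-identical CXB-6/ByJ libraries as separate mice were chosen after seeing the data. Quantile normalization gave 1 gene among AXB/BXA strains, 1 among BXH, 0 among CXB, 5 among inbred strains and 2 for C3H/HeJ. Mapped reads and unique share as covariates gave 0 among CXB strains and 2 for C3H/HeJ. Without OB-547 there was 1 among BXH strains and 2 for C3H/HeJ, and without both mice 3 among BXH strains (28.9% of all gene rows), 8 among inbred strains (63.2%) and 2 for C3H/HeJ. Where no share or total over all genes stands beside a count here, a change in that count may be shared by all genes. Over means of 99 strains 3 pairs were positive and 2 negative, and r was -0.0639 for Malat1 with 1700020I14Rik, 0.0125 for Malat1 with Gm3764 and -0.0275 for Neat1 with Gm3764. Leaving out 1 replicate of every strain gave 6421 to 8641 genes called between strains and 3 to 4 of the 8, with 0 to 1 among AXB/BXA, 2 to 6 among BXD, 0 to 1 among BXH, 0 to 1 among CXB and 2 to 4 among inbred strains, 8 to 12 transcripts and 0 to 6 shares, since fewer mice enter, and 7 positive and 6 negative pairs. Across these the strain share of Malat1 was -0.0946 to 0.407. The other causes were not tested. The Neat1, 1700020I14Rik and A930011O12Rik strain calls, and the founder calls for Neat1 and 1700020I14Rik, held under every alternative run. The read counts behind single FPKM values are unknown here.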

Other observations

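Values for a part of the marker lists not described above follow, with counts without OB-547 and OB-422 in parentheses and shares over all genes with all mice. Without both mice, 1877 of 14078 genes rose with Gm3764, 2444 with 2810008D09Rik and 2901 with C330006A16Rik, against 5119, 5502 and 5288. With Malat1 2982 rose and 3446 fell, against 4031 and 5040, and with Neat1 569 rose and 1046 fell, against 2815 and 2507. With A930011O12Rik the calls increased, to 2324 and 2116 from 1820 and 1657. Of 6 measured anterior pituitary genes, 4 fell with A930011O12Rik within strains (5), where 11.8% of all genes fell, and their summed level ranged from 0.589 to 16462 FPKM (median 25.8), with each of the 6 at 0 in some mouse. Of 5 blood genes, 4 fell with Malat1 (3), where 35.8% of all genes fell. Blood genes that rose numbered 4 with Gm3764 (0), 5 with 2810008D09Rik (3) and 4 with C330006A16Rik (1), where 36.4%, 39.1% and 37.6% of all genes rose. Of 5 astrocyte genes, 3 rose and 1 fell with Malat1 (2 and 1), where 28.6% of all genes rose and 35.8% fell. With Gm3764, 1 astrocyte gene rose and 3 fell (0 and 2), where 36.4% of all genes rose and 29.7% fell. With 2810008D09Rik 2 rose and 3 fell (0 and 2), where 39.1% rose and 31.6% fell. With C330006A16Rik 2 rose and 3 fell (1 and 3), where 37.6% rose and 29.7% fell. Of 6 microglia genes, 3 rose and 2 fell with Malat1 (3 and 1), where 28.6% of all genes rose and 35.8% fell. With Neat1 2 microglia genes rose (0), where 20.0% of all genes rose. The microglia gene Aif1 and the endothelial gene Esam share their rows with other named genes. Of 5 endothelial genes, 3 rose and 1 fell with Neat1 (2 and 0), where 20.0% of all genes rose and 17.8% fell. With 1700020I14Rik, 3 endothelial genes rose and 1 fell (2 and 1), where 23.9% of all genes rose and 28.8% fell. Of 5 neuron genes, 2 rose with 1700020I14Rik (3) and 2 with A930011O12Rik (2), where 23.9% and 12.9% of all genes rose. With 2810008D09Rik 1 neuron gene rose and 3 fell (0 and 2), where 39.1% of all genes rose and 31.6% fell. With C330006A16Rik 1 rose and 2 fell (1 and 2), where 37.6% rose and 29.7% fell. With Gm3764 1 rose and 2 fell (0 and 1), where 36.4% rose and 29.7% fell. With Miat 2 rose and 1 fell (2 and 1), where 5.32% rose and 3.60% fell. With Neat1 0 rose and 2 fell (0 and 1), where 17.8% fell. The part of these cells in the values of the 8 genes was not tested.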
